A study of Mus musculus with 12 samples.

Results

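The genes described here are Mt1, Mt2 and Mt3, the metallothioneins measured in mouse hippocampus, 3 of the 35812 gene IDs of the deposited count table. They were chosen by symbol, and each symbol led to 1 row of that table by its Ensembl ID. Hippocampal RNA was sequenced from 12 male C57BL/6 mice aged 8 weeks, each library from a separate mouse, in 4 groups of 3. F0_Dep were mice made depressive by stress and F0_Ctl were normal mice. F1_Dep were sons of stressed, depressive males and F1_Ctl were sons of normal males. The labels name neither the stress protocol nor the fathers or litters of the F1 mice, so mice of 1 group may be brothers. Lane names stand in the labels of the F1_Ctl libraries alone, so a difference in sequencing and the group cannot be told apart for F1_Ctl. The question the groups pose is whether the level of these genes differs in stressed mice and in the sons of stressed mice.

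Metallothioneins are small cytosolic proteins whose many cysteines bind zinc and copper, and they buffer free metal and oxidants. Mt1 and Mt2 are made in most tissues and in brain mainly in astrocytes, and their transcription is switched on by zinc through the transcription factor MTF1 and by glucocorticoids. Mt3 is largely a brain gene, known as growth inhibitory factor, is made in astrocytes and in zinc-rich neurons of the hippocampus, and responds little to metal.

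The genes lie side by side on the plus strand of chromosome 8 of the mouse build GRCm38. In the GENCODE M21 annotation Mt3 (ENSMUSG00000031760) spans chr8:94152607-94154146, Mt2 (ENSMUSG00000031762) chr8:94172664-94173568 and Mt1 (ENSMUSG00000031765) chr8:94179082-94180327, all 3 within 27721 bases. Mt3 and Mt2 are 18518 bases apart and Mt2 and Mt1 5514 bases apart. The fourth gene of the cluster, Mt4, known from squamous epithelium, lies at chr8:94137197-94139031 and had a count in 1 library of 12, of 1 read.

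The coding sequences (GRCm38, plus strand, 1 GENCODE transcript of 3 exons per gene) show how close the members are, since the text compares their counts with each other; capitals mark the codons for cysteine.
Mt1 coding: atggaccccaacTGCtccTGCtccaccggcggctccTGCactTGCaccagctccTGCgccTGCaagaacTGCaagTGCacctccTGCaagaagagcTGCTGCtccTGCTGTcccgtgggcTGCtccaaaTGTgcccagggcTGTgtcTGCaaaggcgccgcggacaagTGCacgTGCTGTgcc
Mt2 coding: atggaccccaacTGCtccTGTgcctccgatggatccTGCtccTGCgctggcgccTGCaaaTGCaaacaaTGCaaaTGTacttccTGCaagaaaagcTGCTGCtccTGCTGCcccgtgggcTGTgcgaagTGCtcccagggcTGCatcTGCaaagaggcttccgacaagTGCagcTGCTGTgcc
Mt3 coding: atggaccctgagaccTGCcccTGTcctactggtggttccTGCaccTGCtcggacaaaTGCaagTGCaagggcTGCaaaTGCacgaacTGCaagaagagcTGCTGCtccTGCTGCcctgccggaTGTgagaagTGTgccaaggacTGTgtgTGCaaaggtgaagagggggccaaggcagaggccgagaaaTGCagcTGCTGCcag
Each reading frame holds 20 cysteine codons, in 61 codons for Mt1 and Mt2 and in 68 for Mt3, which carries extra codons near its end. Mt1 and Mt2 were identical at 145 of 183 aligned bases (79.2%), Mt1 and Mt3 at 65.7% and Mt2 and Mt3 at 67.2%. The longest run shared by the annotated transcripts was 20 bases for Mt1 and Mt2, 27 bases for Mt1 and Mt3 and 20 bases for Mt2 and Mt3. No stretch of 31 bases of Mt1 or Mt3 occurred in the transcripts of another gene. Mt2 shared 267 of its 481 stretches of that length with Gm45774, an antisense gene on the minus strand at chr8:94170748-94173412 that overlaps it, and 3 with a processed transcript of Pip5k1a. The kit keeps strand, but no label or file header used here says whether the counting did, so reads of Mt2 and Gm45774 may not be separated. Gm45774 has no row in the count table, and its FPKM (fragments scaled to transcript length and to library size) was 0.201 to 0.593 over the 9 libraries with FPKM files, where Mt2 had 131 to 257.

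The promoters are shown because the 3 genes were examined for moving together and Mt1 and Mt2 are known targets of MTF1. Each window is from RefSeq on GRCm38.p6 and runs on the plus strand from 250 bases before the gene's RefSeq start to 50 after it, and all 3 genes had one. For Mt1 and Mt2 the RefSeq start is not the GENCODE start given above. Positions below count from the RefSeq start. Capitals mark matches, on either strand, to the metal response element words TGCACNC and TGCGCNC.
Mt1 promoter, chr8:94178839-94179138: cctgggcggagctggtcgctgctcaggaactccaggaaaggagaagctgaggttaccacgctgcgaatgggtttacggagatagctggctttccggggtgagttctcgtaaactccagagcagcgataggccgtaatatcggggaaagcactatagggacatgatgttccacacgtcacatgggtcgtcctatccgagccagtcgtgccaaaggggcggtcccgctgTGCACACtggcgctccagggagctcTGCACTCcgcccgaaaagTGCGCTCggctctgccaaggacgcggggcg
Mt2 promoter, chr8:94172368-94172667: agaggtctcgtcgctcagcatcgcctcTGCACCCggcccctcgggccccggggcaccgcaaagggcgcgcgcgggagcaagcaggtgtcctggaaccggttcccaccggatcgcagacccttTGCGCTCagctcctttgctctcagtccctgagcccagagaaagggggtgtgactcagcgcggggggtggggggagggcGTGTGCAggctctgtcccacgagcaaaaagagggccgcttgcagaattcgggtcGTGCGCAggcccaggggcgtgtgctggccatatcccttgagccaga
Mt3 promoter, chr8:94152357-94152656: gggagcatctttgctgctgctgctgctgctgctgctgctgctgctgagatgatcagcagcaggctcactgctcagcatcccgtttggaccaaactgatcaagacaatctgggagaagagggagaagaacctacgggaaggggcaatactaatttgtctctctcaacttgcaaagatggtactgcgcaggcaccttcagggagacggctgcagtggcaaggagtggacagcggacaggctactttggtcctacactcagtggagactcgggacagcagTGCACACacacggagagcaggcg
Mt1 held 3 matches, with first bases at -23, 3 and 21 from the start, and Mt2 held 4, at -223, -128, -50 and 5. Mt3 held 1, at 28. Of 32851 RefSeq promoters of the same length, 25.7% held at least 1 match, 1.97% at least 3 and 0.517% at least 4. The glucocorticoid response element, searched as an inverted repeat of a short word with a spacer, matched the Mt1 window at -94, as it did in 0.475% of promoters, and neither of the other windows. The antioxidant response element word TGACNNNGC matched the Mt2 window at -79, as in 12.4% of promoters. The E-box CACGTG, present in 7.15% of promoters, was in none of the 3 windows.

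Library totals of the deposited expected counts (estimated read counts that need not be whole) ran from 18277208 to 23083678, and the members' own counts from 1150 to 6212. Mitochondrial genes took 5.09% to 5.32% of counts in F0_Dep, 7.75% to 9.26% in F0_Ctl, 6.70% to 7.17% in F1_Dep and 7.45% to 10.9% in F1_Ctl. The tissue label was checked by marker genes in CPM (counts scaled to library size by the trimmed mean of M-values). Summed CPM of the 10 dentate granule cell markers fitted was 797 to 1060 in F0_Dep, 680 to 965 in F0_Ctl, 244 to 583 in F1_Dep and 854 to 1092 in F1_Ctl. That of 15 choroid plexus markers was 162 to 507 in F0_Dep, 177 to 6576 in F0_Ctl, 3683 to 6362 in F1_Dep and 341 to 12570 in F1_Ctl, and no marker of either list was at 0 in every library of a group. F0_Ctl 3, F1_Ctl 3 and F1_Dep 1 stood apart from their own groups in markers of neighbouring tissue. Choroid plexus markers were at 2.64 in F0_Ctl 3 and 3.92 in F1_Ctl 3, and striatum markers at 2.96 in F1_Dep 1. These are centred log2 values (the median log2 CPM of a list, less its mean in the 12 libraries). All F1_Dep mice were high in choroid plexus markers, at 1.65 in F1_Dep 1, 2.93 in F1_Dep 2 and 2.82 in F1_Dep 3. Leaving out F0_Ctl 3, F1_Ctl 3 and F1_Dep 1 together, as below, thus keeps F1_Dep 2 and F1_Dep 3. In bulk tissue, fewer cells of a type and less RNA per cell cannot be told apart.

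All 3 genes were abundant. By FPKM, the measure that allows genes to be compared per length, Mt1 ranked 115, Mt3 140 and Mt2 258 of the 26405 genes listed when ordered by mean level. Mt1 averaged 255 ± 4.90 FPKM in F0_Dep, 341 ± 79.2 in F0_Ctl and 323 ± 36.1 in F1_Dep (SD, n = 3 each). Mt3 averaged 205 ± 16.8 FPKM in F0_Dep, 297 ± 64.3 in F0_Ctl and 266 ± 26.1 in F1_Dep (SD, n = 3 each). Mt2 averaged 148 ± 11.2 FPKM in F0_Dep, 205 ± 45.9 in F0_Ctl and 157 ± 24.6 in F1_Dep (SD, n = 3 each). Mt1 was thus above Mt3 and Mt3 above Mt2 by mean FPKM in each of these groups, and FPKM of F1_Ctl were not used here.

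Mt1, the zinc- and hormone-inducible member, had 144, 149 and 146 CPM in F0_Dep, 228, 144 and 159 CPM in F0_Ctl, 160, 205 and 177 CPM in F1_Dep and 141, 193 and 285 CPM in F1_Ctl. The F0_Dep libraries lay close together at the low end, F0_Ctl 1 and F1_Ctl 3 were high, and the groups overlapped except that every F1_Dep library lay above every F0_Dep library. Group means were 146 ± 2.47 CPM in F0_Dep, 177 ± 44.6 in F0_Ctl, 181 ± 22.4 in F1_Dep and 207 ± 73.1 in F1_Ctl (SD, n = 3 each).

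Mt2, the partner of Mt1 in most tissues, had 70.3, 73.9 and 66.1 CPM in F0_Dep, 112, 73.8 and 77.3 CPM in F0_Ctl, 59.1, 83.3 and 74.4 CPM in F1_Dep and 68.5, 88.9 and 141 CPM in F1_Ctl. The lowest library was F1_Dep 1 and the highest again F1_Ctl 3 and F0_Ctl 1, and all 4 groups overlapped. Group means were 70.1 ± 3.94 CPM in F0_Dep, 87.6 ± 20.9 in F0_Ctl, 72.3 ± 12.2 in F1_Dep and 99.3 ± 37.1 in F1_Ctl (SD, n = 3 each).

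Mt3, the brain member, had 143, 151 and 131 CPM in F0_Dep, 220, 138 and 192 CPM in F0_Ctl, 154, 181 and 166 CPM in F1_Dep and 161, 240 and 310 CPM in F1_Ctl. F1_Ctl 3 and F1_Ctl 2 were highest and F0_Dep 3 lowest, and all F1_Dep and all F1_Ctl libraries lay above all F0_Dep libraries. F0_Dep overlapped F0_Ctl, and F1_Dep overlapped F1_Ctl and F0_Ctl. Group means were 141 ± 10.3 CPM in F0_Dep, 183 ± 41.6 in F0_Ctl, 167 ± 13.5 in F1_Dep and 237 ± 74.6 in F1_Ctl (SD, n = 3 each).

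**Figure D1:**
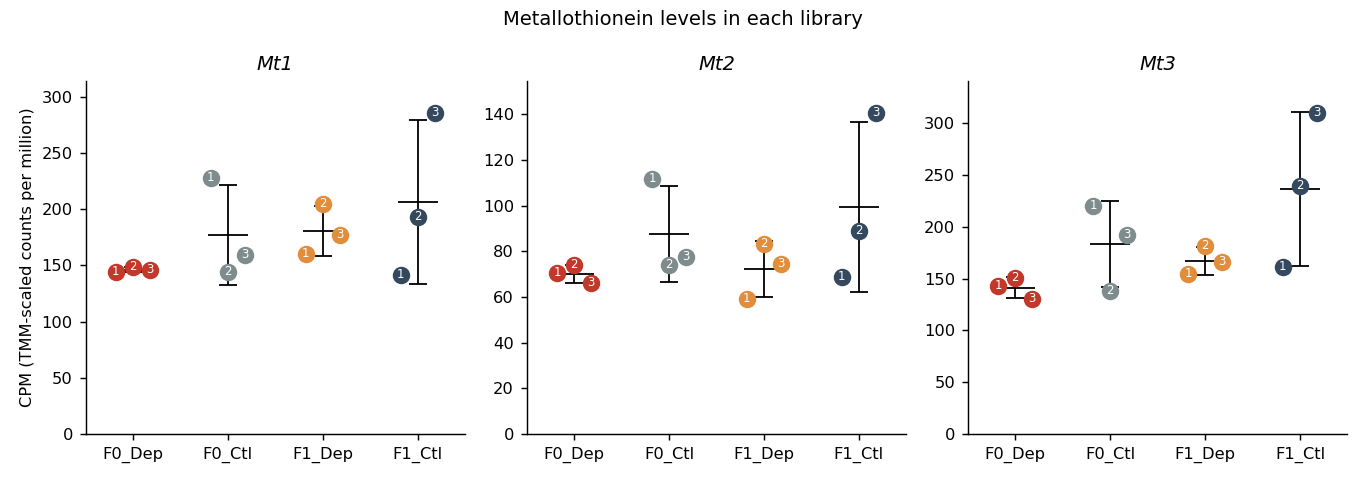
Level of Mt1, Mt2 and Mt3 in each library in CPM (vertical axis, from 0), by group; points carry the number of the mouse, the black line is the mean and the bar the SD of 3 mice. F1_Ctl 3 is the highest library for each gene, at 285, 141 and 310 CPM, and the F0_Dep mice lie closest together.

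By mean CPM F1_Ctl was the highest and F0_Dep the lowest group for each gene. Between them F1_Dep came above F0_Ctl for Mt1, and F0_Ctl above F1_Dep for Mt2 and Mt3. No neighbours in these orders passed the edgeR test for a pair of groups, and their mice overlapped except for F1_Dep and F0_Dep in Mt3. Tested over all 4 groups at once with edgeR, the adjusted p was 0.415 for Mt1, 0.347 for Mt2 and 0.157 for Mt3 (Benjamini-Hochberg over 16178 genes), so none of the 3 passed 0.05, a threshold passed by 0.457% of all genes. Without adjustment Mt3 alone of the 3 was under 0.05, as were 24.3% of all genes. Mt3 was called by DESeq2, with an adjusted p = 0.0427, where 14.4% of genes were, and by edgeR without F1_Ctl 1, with an adjusted p = 0.0232, in a fit that called 16.0% of all genes.

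The mice of a group also differed in how far apart they lay. The highest Mt1 library was 1.03 times the lowest in F0_Dep, 1.58 times in F0_Ctl, 1.28 times in F1_Dep and 2.02 times in F1_Ctl. For Mt2 the same quotient was 1.12 in F0_Dep, 1.51 in F0_Ctl, 1.41 in F1_Dep and 2.05 in F1_Ctl. For Mt3 it was 1.16 in F0_Dep, 1.59 in F0_Ctl, 1.17 in F1_Dep and 1.93 in F1_Ctl. Other genes also lay farther apart in the control groups: the median quotient over 4622 genes with a mean of at least 50 CPM was 1.10 in F0_Dep, 1.24 in F0_Ctl, 1.11 in F1_Dep and 1.24 in F1_Ctl.

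F0_Dep against F0_Ctl compares stressed with normal mice. All 3 were lower on average in F0_Dep, and none passed the edgeR test. The log2 fold change was -0.28 ± 0.23 for Mt1 (adjusted p = 0.523), -0.32 ± 0.24 for Mt2 (adjusted p = 0.476) and -0.37 ± 0.21 for Mt3 (adjusted p = 0.354; log2 ± SE, edgeR quasi-likelihood test with Benjamini-Hochberg adjustment). Called were 0 of 3 members, beside 0.494% of all genes, and the count was also 0 at an unadjusted p under 0.05, reached by 19.7% of all genes, and by DESeq2, which called 6.66%. The 95% interval of Mt3 ran from -0.84 to 0.09. In CPM the F0_Dep mice lay within or just below the F0_Ctl range, near F0_Ctl 2, and without F0_Ctl 1 the edgeR values were -0.04 for Mt1, -0.09 for Mt2 and -0.21 for Mt3.

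In FPKM the same comparison gave larger negative values. Mt3 had 210, 219 and 186 FPKM in F0_Dep, against 339, 223 and 330 FPKM in F0_Ctl. Mt1 had 249 to 258 FPKM in F0_Dep and 273 to 428 FPKM in F0_Ctl, and Mt2 had 135 to 156 FPKM in F0_Dep and 168 to 257 FPKM in F0_Ctl. For each of the 3 genes the highest F0_Dep mouse was thus below the lowest F0_Ctl mouse, as for 19.1% of all genes. The log2 fold change of Mt3 on the log2(FPKM + 1) scale was -0.51 ± 0.15 with an adjusted p = 0.0399 by limma, and it was called. Mt2 had -0.45 ± 0.16 (adjusted p = 0.0662 by limma) and Mt1 -0.39 ± 0.15 (adjusted p = 0.0790 by limma). The call of Mt3 stands beside 21.2% of all genes called in FPKM in either direction and 10.8% called as lower. It was lost when genes with low FPKM were kept in the test.

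In the comparison of F1_Dep with F1_Ctl, sons of stressed and of normal males, all 3 means were again lower in F1_Dep and none passed. The log2 fold change was -0.19 ± 0.23 for Mt1 (adjusted p = 0.748), -0.46 ± 0.24 for Mt2 (adjusted p = 0.397) and -0.50 ± 0.21 for Mt3 (adjusted p = 0.293; edgeR). For Mt3 the 95% interval, from -0.96 to -0.04, did not reach 0, and without adjustment Mt3 alone was under 0.05, as were 14.8% of all genes. Called were 0 of 3 members by edgeR, beside 0.167% of all genes, and 0 by DESeq2, beside 3.36%. All 3 values depended on single F1_Ctl mice, which spread widely. Without F1_Ctl 3 the log2 fold change was 0.14 for Mt1, -0.10 for Mt2 and -0.24 for Mt3. Without F0_Ctl 3, F1_Ctl 3 and F1_Dep 1 together that of Mt1 was 0.19. Without F1_Ctl 1 that of Mt3 was -0.72, with an adjusted p = 0.0470 by edgeR, in a fit that called 4.11% of all genes.

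The difference between both changes, the F1 change minus the F0 change, was 0.08 ± 0.32 for Mt1, -0.14 ± 0.33 for Mt2 and -0.13 ± 0.30 for Mt3 (log2 ± SE), with adjusted p from 0.901 to 0.943 by edgeR. Called were 0 of 3, beside 0.068% of all genes, with 0 at an unadjusted p under 0.05 (13.4% of all genes) and 0 by DESeq2 (3.03%). The 95% intervals ran from -0.61 to 0.78 for Mt1, from -0.87 to 0.59 for Mt2 and from -0.78 to 0.52 for Mt3, which is as closely as 3 mice a group fixed this difference.

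The remaining comparisons share their libraries with those above. F1_Dep against F0_Ctl gave log2 fold changes of 0.03 for Mt1, -0.28 for Mt2 and -0.13 for Mt3, with adjusted p from 0.670 to 0.969 by edgeR, and 0 of 3 were called, beside 0.0% of all genes by edgeR, with 0 at an unadjusted p under 0.05 (12.8%) and 0 by DESeq2 (2.53%). F1_Ctl against F0_Ctl gave 0.22, 0.18 and 0.37 in the same order, with adjusted p from 0.752 to 0.842 by edgeR, and again 0 of 3, beside 0.0% of all genes by edgeR, with 0 at an unadjusted p under 0.05 (5.9%) and 0 by DESeq2 (0.0%). In FPKM F1_Dep against F0_Ctl gave -0.06 for Mt1, -0.38 for Mt2 and -0.14 for Mt3 on the log2(FPKM + 1) scale, none called by limma, beside 0.268% of all genes. Without F1_Ctl 3 the value of F1_Ctl against F0_Ctl was -0.09 for Mt1, -0.16 for Mt2 and 0.12 for Mt3.

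Of these 5 comparisons, F1_Dep against F0_Dep was the 1 in which groups did not overlap in CPM. Mt1 and Mt3 were higher in all 3 F1_Dep mice than in any F0_Dep mouse, and Mt2 overlapped. Of all genes 22.6% separated upward in this way. The log2 fold change was 0.31 ± 0.23 for Mt1 (adjusted p = 0.440), 0.04 ± 0.24 for Mt2 (adjusted p = 0.929) and 0.24 ± 0.21 for Mt3 (adjusted p = 0.520; edgeR). Called were 0 of 3 members, beside 2.87% of all genes, with 0 at an unadjusted p under 0.05 (22.3% of all genes) and 0 by DESeq2 (9.29%). Mt1 was called by limma with voom and library weights, which called 29.8% of all genes, and by edgeR on these 6 libraries alone, which called 24.0%, with adjusted p of 0.0384 and 0.0386. In FPKM Mt1 had 0.33 ± 0.15 and Mt3 0.37 ± 0.15 on the log2(FPKM + 1) scale, with adjusted p of 0.151 and 0.126 by limma, which called 7.22% of all genes as higher. In that unit too all F1_Dep mice were above all F0_Dep mice for Mt1 and Mt3, as for 26.6% of all genes, and Mt2 overlapped.

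**Figure D2:**
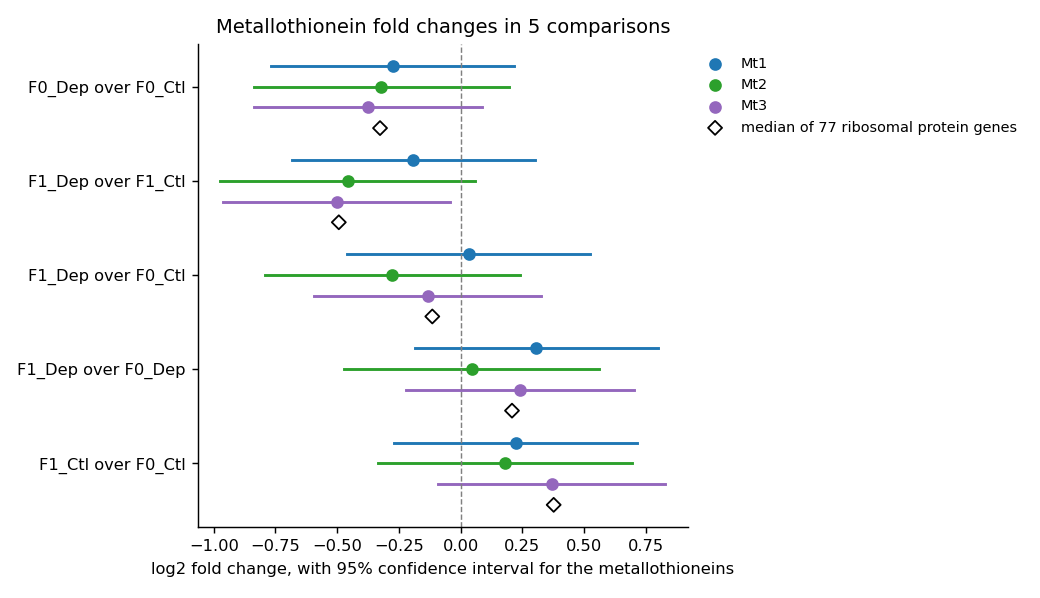
Log2 fold change (horizontal axis) of Mt1, Mt2 and Mt3 in 5 comparisons (rows), as points with 95% confidence intervals from edgeR; open diamonds give the median of 77 ribosomal protein genes. The intervals include 0 except that of Mt3 in F1_Dep over F1_Ctl, and the diamonds lie near Mt3, for example at -0.49 beside -0.50 in that comparison.

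Because the genes are counted in the same library, the ratio of 2 of them is free of library scaling, and here the groups differed. The Mt1 count was 2.71, 2.46 and 2.39 times the Mt2 count in F1_Dep. It was 2.05, 2.01 and 2.21 times in F0_Dep, 2.04, 1.95 and 2.06 times in F0_Ctl and 2.06, 2.17 and 2.03 times in F1_Ctl. Every F1_Dep mouse lay above each of the other 9 mice, which kept within 1.95 to 2.21. How many other pairs of genes set F1_Dep apart in this way was not counted. The mean was 2.52 ± 0.17 in F1_Dep, 2.09 ± 0.11 in F0_Dep, 2.02 ± 0.06 in F0_Ctl and 2.09 ± 0.08 in F1_Ctl (SD, n = 3 each).

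An exact permutation test over all 369600 arrangements of the 12 libraries into 4 groups gave p = 0.00877 for the Mt1 to Mt2 ratio, and an adjusted p = 0.0263 over the 3 ratios tested. With 3 mice against 3 an exact permutation test cannot go below p = 0.1. F1_Dep reached that value against each of F1_Ctl, F0_Ctl and F0_Dep, with an adjusted p = 0.3 in each over 15 such tests. On the log2 scale the differences were 0.27, 0.32 and 0.27. Over all 4 groups the adjusted p was 0.0538 without F0_Ctl 2 and 0.0220 to 0.0409 without any other single library (exact permutation test). Without F0_Ctl 3, F1_Ctl 3 and F1_Dep 1 together the adjusted p over all 4 groups was 0.0373 (exact permutation test). In FPKM the ratio was 2.26, 2.02 and 1.94 in F1_Dep, 1.65, 1.63 and 1.91 in F0_Dep and 1.67, 1.62 and 1.68 in F0_Ctl, again with every F1_Dep mouse above the other groups, and over these 9 libraries the exact permutation test gave an adjusted p = 0.0857.

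Measures of tissue makeup moved with this ratio in part, and their part in it was not tested. Dentate granule markers were lowest in the F1_Dep mice, at -1.90, -0.28 and -0.84 on the centred log2 scale, against -0.03 to 0.58 in the other 9. Choroid plexus markers were at 1.65 to 2.93 in F1_Dep. They were at 2.64 in F0_Ctl 3 and 3.92 in F1_Ctl 3, whose Mt1 to Mt2 ratios were 2.06 and 2.03. Striatum markers were highest in F1_Dep 1, at 2.96, and stood at 0.65 in F1_Dep 2 and 0.06 in F1_Dep 3. The ratios of these mice, 2.71, 2.46 and 2.39, fell in the same order. In the other 9 mice striatum markers were at -1.18 to 0.31. The antisense gene over Mt2 had 0.593, 0.399 and 0.502 FPKM in F1_Dep, 0.299, 0.526 and 0.201 in F0_Dep and 0.282, 0.358 and 0.483 in F0_Ctl. Its part in the ratio was not tested.

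The other ratios did not separate the groups in this test. Mt1 was 1.04, 1.13 and 1.07 times Mt3 in F1_Dep and 0.877, 0.806 and 0.921 times in F1_Ctl, which do not overlap, and overlapped between the F0 groups (exact permutation test over 4 groups, adjusted p = 0.0889). Mt2 was 0.383 to 0.459 times Mt3 in F1_Dep, 0.490 to 0.506 in F0_Dep, 0.403 to 0.534 in F0_Ctl and 0.371 to 0.453 in F1_Ctl (adjusted p = 0.201, exact permutation test). Without F0_Ctl 3, whose ratios of Mt1 and of Mt2 to Mt3 were the lowest of its group, these p were 0.0224 and 0.0497, and without F0_Ctl 3, F1_Ctl 3 and F1_Dep 1 together they were 0.0373 and 0.00476.

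**Figure D3:**
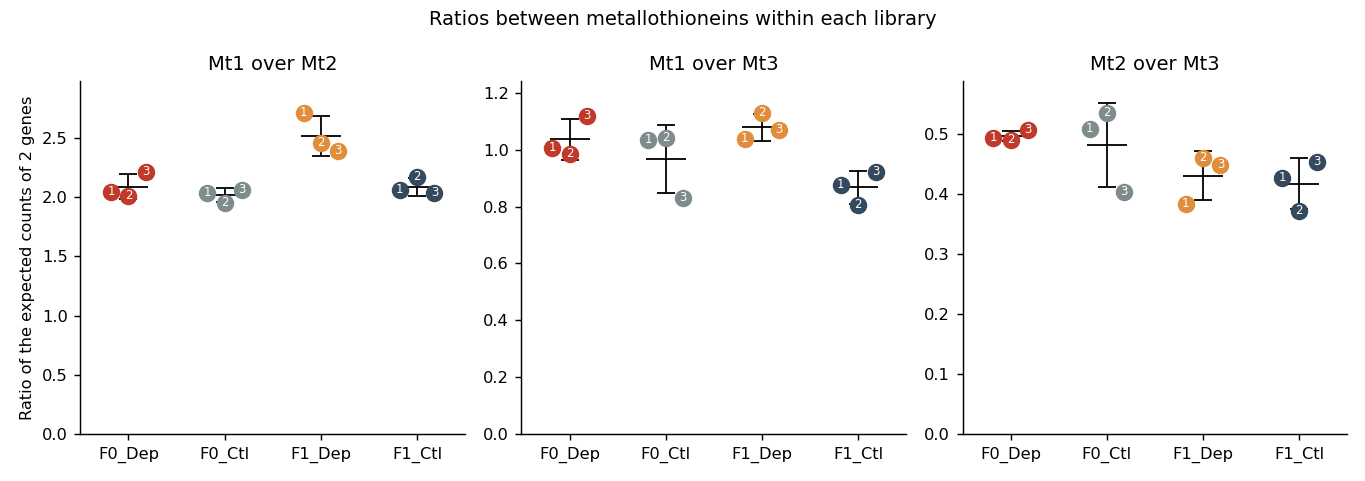
Ratio of the expected counts of 2 metallothioneins within each library (vertical axes, from 0), by group; points carry the number of the mouse, the black line is the mean and the bar the SD of 3 mice. For Mt1 over Mt2 the F1_Dep mice lie at 2.39 to 2.71 and the other 9 mice at 1.95 to 2.21.

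Apart from this shift, the 3 genes moved together from mouse to mouse. Across the 12 libraries Pearson's r of log2 CPM was 0.90 for Mt1 with Mt3, 0.91 for Mt1 with Mt2 and 0.89 for Mt2 with Mt3, each with an adjusted permutation p = 0.00066 over 6 coefficients. Spearman's rho was 0.80, 0.78 and 0.85 in the same order, with adjusted permutation p of 0.0034, 0.0035 and 0.0014. Without F0_Ctl 1 and F1_Ctl 3, the libraries farthest from the median, r was 0.74, 0.65 and 0.73. After subtraction of the group means r was 0.93, 0.98 and 0.90, so that mice within a group varied together as well. The libraries share their scaling and composition, and other genes followed the same course. The genes named below reached r of 0.93 to 0.98 with a member over the 12 libraries, above each r between members. The share of all genes with so high an r was not computed.

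The genes most like each member in log2 CPM over the 12 libraries, of 11263 ranked, came from several functions. For Mt1 they were Clu, the secreted chaperone clusterin (r = 0.96), Gstm1, a glutathione transferase (r = 0.96), and the tetraspanin Tspan3 (r = 0.95). For Mt3 they were Lamtor1, a lysosomal membrane adaptor (r = 0.98), Derl1, a protein of the endoplasmic reticulum (r = 0.98), and the ribosomal protein Rplp0 (r = 0.97). For Mt2 they were Mpv17l2, Med6 and Derl1, each with r = 0.93. These coefficients describe the same 12 libraries and were picked as the highest of many.

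The mice with the highest metallothionein levels were also high in other gene groups, whose part in the members' values was not tested. The median level of 77 cytosolic ribosomal protein genes, a list added after the data were seen, was at a centred log2 value of 0.28 in F0_Ctl 1, 0.53 in F1_Ctl 2 and 0.70 in F1_Ctl 3, where Mt3 itself was at 0.32, 0.44 and 0.81. The median log2 fold change of these genes was -0.33 in F0_Dep over F0_Ctl, -0.49 in F1_Dep over F1_Ctl, -0.11 in F1_Dep over F0_Ctl, 0.21 in F1_Dep over F0_Dep and 0.38 in F1_Ctl over F0_Ctl, against -0.37, -0.50, -0.13, 0.24 and 0.37 for Mt3. The other members lay farther from these medians in part. In the same order Mt1 had -0.28, -0.19, 0.03, 0.31 and 0.22, and Mt2 -0.32, -0.46, -0.28, 0.04 and 0.18. The 312 protein-coding genes with under 1000 exonic bases, also added later, had medians of -0.29 in F0_Dep over F0_Ctl and -0.31 in F1_Dep over F1_Ctl, where all genes fitted had -0.04 and -0.02. Astrocyte markers, from the cells known to make Mt1 and Mt2, were at 0.15 in F0_Ctl 1, 0.24 in F1_Ctl 2 and 0.35 in F1_Ctl 3, and microglia markers at 0.35, 0.56 and 0.46 in the same mice. Other mice did not follow: in F0_Ctl 3 Mt3 was at 0.12 beside -0.26 for astrocyte and -0.22 for microglia markers, and in F1_Dep 2 Mt1 was at 0.24 beside -0.12 for the ribosomal protein genes. Of 18 astrocyte markers 0 were called in either stress comparison by edgeR (DESeq2 called 2 in each, and 3 and 2 had an unadjusted p under 0.05), with median log2 fold changes of -0.03 in F0_Dep over F0_Ctl and -0.14 in F1_Dep over F1_Ctl. Their summed CPM was 7731 to 8394 in F0_Dep, 5922 to 8523 in F0_Ctl, 7190 to 8137 in F1_Dep and 6816 to 9657 in F1_Ctl, and none was at 0. Clu is on that list too.

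**Figure D4:**
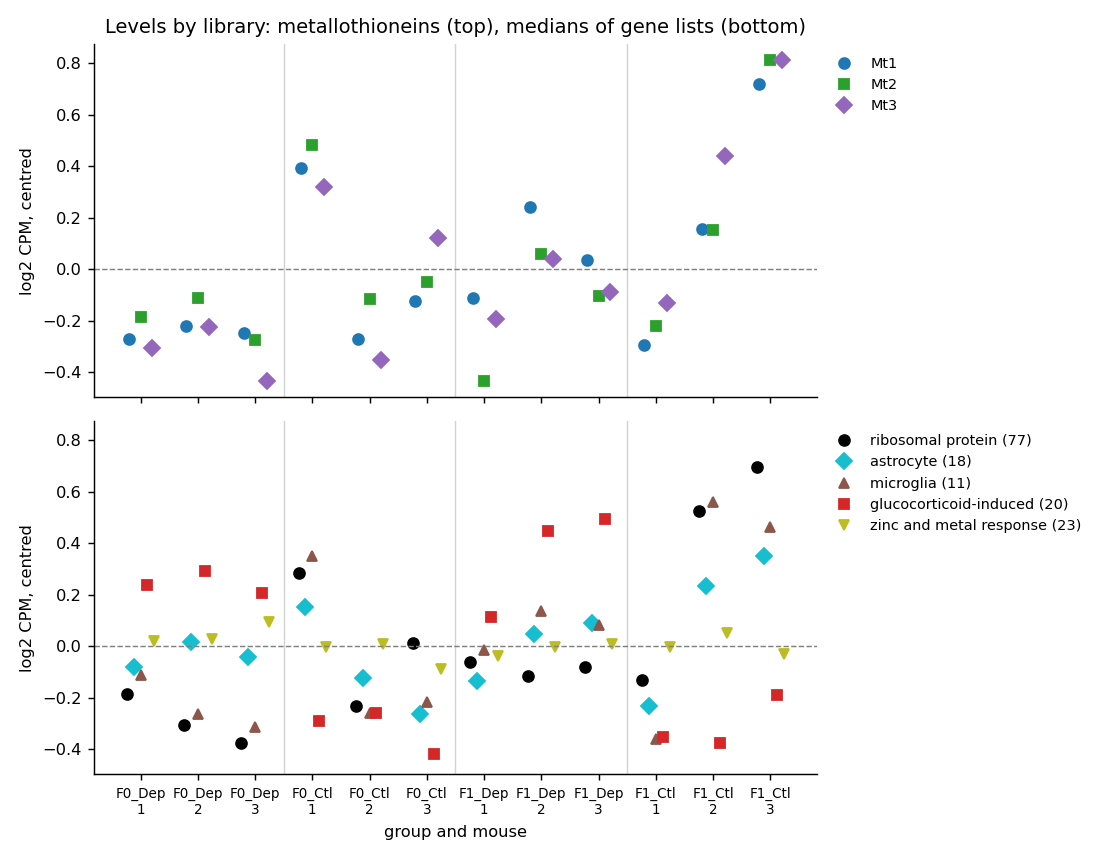
Log2 CPM centred on the mean of the 12 libraries (vertical axis) for Mt1, Mt2 and Mt3 (top) and as the median of 5 gene lists, with the number of genes in parentheses (bottom), for each mouse (horizontal axis). The metallothioneins and the ribosomal protein, astrocyte and microglia lists are high in F0_Ctl 1, F1_Ctl 2 and F1_Ctl 3, while the glucocorticoid-induced list is above 0 in the 6 mice of F0_Dep and F1_Dep and below it in the other 6.

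Of all genes fitted, 0.494% were called by edgeR in F0_Dep against F0_Ctl, 19.7% had an unadjusted p under 0.05 and 6.66% were called by DESeq2; in F1_Dep against F1_Ctl these shares were 0.167%, 14.8% and 3.36%. The lists that follow were not tested as sets. Of 23 zinc transporters and metal-response genes fitted, 0 were called by edgeR in F0_Dep against F0_Ctl and 0 in F1_Dep against F1_Ctl. At an unadjusted p under 0.05 there were 6 and 3, and DESeq2 called 2 in each. The median log2 fold change was 0.02 in both comparisons, where all genes fitted had -0.04 and -0.02. Mtf1, the zinc-sensing factor that drives Mt1 and Mt2, averaged 42.4 ± 1.68 CPM in F0_Dep and 35.2 ± 1.25 CPM in F0_Ctl (SD, n = 3 each), a log2 fold change of 0.27 ± 0.09 (adjusted p = 0.132, edgeR). It averaged 44.3 ± 3.29 CPM in F1_Dep and 33.8 ± 2.60 CPM in F1_Ctl (SD, n = 3 each), a log2 fold change of 0.39 ± 0.09 (adjusted p = 0.0882, edgeR). DESeq2 called it in both comparisons, with adjusted p of 0.0483 and 0.00423. Within both comparisons the mean of Mtf1 was thus higher in the group in which those of its targets Mt1 and Mt2 were lower. Neither change of Mt1 or Mt2 was called, and without F1_Ctl 3 those in F1_Dep over F1_Ctl were 0.14 and -0.10. The order did not hold across the comparisons: Mt1 averaged 181 CPM in F1_Dep and 177 CPM in F0_Ctl.

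Slc30a1, the zinc exporter of the cell surface and itself a known MTF1 target, had log2 fold changes of 0.05 and 0.02 in F0_Dep over F0_Ctl and F1_Dep over F1_Ctl (adjusted p = 0.859 and 0.972, edgeR). Slc30a3, which loads zinc into synaptic vesicles of hippocampal neurons, had -0.18 and -0.64 (adjusted p = 0.755 and 0.296, edgeR), and the zinc importer Slc39a14 had 0.40 and 0.08 (adjusted p = 0.131 and 0.830, edgeR). In FPKM Slc39a14 was called in F0_Dep against F0_Ctl, at 0.54 on the log2(FPKM + 1) scale (adjusted p = 0.0140, limma). Of 12 copper and 10 iron handling genes 0 were called in either comparison by edgeR. At an unadjusted p under 0.05 there were 2 and 3 in each comparison, and DESeq2 called 1 of each list in F0_Dep against F0_Ctl and 0 and 2 in F1_Dep against F1_Ctl. In F1_Dep against F0_Dep, 1 iron gene rose, that of the transport protein transferrin, Trf, by 1.63 ± 0.37 (log2 ± SE, adjusted p = 0.0418, edgeR). It missed the threshold in each omission of 1 library, with adjusted p from 0.0807 to 0.183. The 11 fitted markers of oligodendrocytes, which are known to make transferrin, summed to 6262 to 7485 CPM in F1_Dep and 2986 to 3316 CPM in F0_Dep, none at 0. Their part in this rise was not tested.

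Of 22 oxidative stress genes, which like the metallothioneins counter oxidants, 0 were called by edgeR in either stress comparison, with 6 and 1 at an unadjusted p under 0.05 and 2 and 1 by DESeq2. In both comparisons 15 of the 22 had a negative log2 fold change, as had 54.6% and 53.1% of all genes fitted. The medians were -0.05 and -0.10, beside -0.04 and -0.02 for all genes. Hmox1, the inducible haem oxygenase, had log2 fold changes of -0.09 in F0_Dep over F0_Ctl and -0.25 in F1_Dep over F1_Ctl (adjusted p = 0.902 and 0.762, edgeR). The genes next to the cluster on chromosome 8 gave 0 calls of 10 in either comparison by edgeR, with 3 in each at an unadjusted p under 0.05 and 1 and 2 by DESeq2, and medians of 0.15 and 0.03.

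Glucocorticoid-induced genes, a class to which Mt1 and Mt2 also belong, had positive median changes in both stress comparisons. Of 20 members fitted, 2 rose in F0_Dep against F0_Ctl, Plin4, a lipid droplet protein (2.64 ± 0.39, adjusted p = 0.0310, edgeR), and Cdkn1a, a cell cycle inhibitor (0.90 ± 0.17, adjusted p = 0.0472, edgeR). At an unadjusted p under 0.05 there were 15 of 20, and DESeq2 called 10, where 0.494%, 19.7% and 6.66% of all genes passed these 3 thresholds. In F1_Dep against F1_Ctl 3 rose: Plin4 by 2.47 ± 0.38, Cdkn1a by 1.09 ± 0.17 and Per1, part of the circadian clock, by 0.80 ± 0.13 (log2 ± SE, adjusted p = 0.0374, 0.0381 and 0.0437, edgeR). At an unadjusted p under 0.05 there were 14, and DESeq2 called 9, where 0.167%, 14.8% and 3.36% of all genes passed. The list's median log2 fold change was 0.45 in F0_Dep over F0_Ctl and 0.60 in F1_Dep over F1_Ctl, against -0.28 and -0.19 for Mt1 and -0.32 and -0.46 for Mt2. The kinase gene Sgk1 had 0.96 and 1.34 (adjusted p = 0.0839 and 0.0606, edgeR), and Fkbp5, which restrains the hormone's receptor, 0.49 and 0.03 (adjusted p = 0.0786 and 0.960, edgeR). In F1_Dep against F0_Dep 2 members rose, Arl4d by 0.99 ± 0.16 and Tsc22d3 by 0.66 ± 0.16 (adjusted p = 0.0209 and 0.0491, edgeR), with 7 at an unadjusted p under 0.05 and 6 by DESeq2, beside 2.87%, 22.3% and 9.29% of all genes. These calls rest on few mice: each was lost in at least 1 omission of a library, with adjusted p up to 0.153 for Plin4 and 0.227 for Cdkn1a in F0_Dep against F0_Ctl, 0.167 for both and 0.169 for Per1 in F1_Dep against F1_Ctl, and 0.104 for Arl4d and 0.194 for Tsc22d3 in F1_Dep against F0_Dep.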

How the data were processed

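The authors deposited expected counts per gene for 12 libraries and FPKM per gene for 9; the mRNA kit was stranded, per the labels' protocols. HISAT2, Cufflinks 2.2.1 and mm10 are named, without roles, per the submitters' processing notes, and no source used here gives the counting tool. Expected counts, rounded here to integers, were scaled by TMM, filtered with filterByExpr and fitted with edgeR 4.0.16 under R 4.3.3 (quasi-likelihood F-test, 4 groups together, 16178 genes, Benjamini-Hochberg threshold 0.05). Standard errors were derived from the F statistic and are approximate. The deposited FPKM were tested as log2(FPKM + 1) with limma 3.58.1, for 13820 genes that reached 1 FPKM in 3 or more libraries; this scale understates changes of low genes. Ratios and correlations were tested by permutation with SciPy 1.17.1. The fit was checked on simulated counts. DESeq2 1.42.0, voom, other scalings and filters, omitted libraries and a replicate block were alternatives. Members, gene lists and tests were chosen with earlier results of these data known. Other named genes were fixed zinc, redox and hormone genes, called genes of those lists, and the 3 genes most correlated with each member. The genes ranked for this had a mean of at least 5 CPM. Left out were the members and genes named only by a Gm number, an Ensembl ID or a Rik symbol. A list's level is the median log2 CPM (prior count 2) of its genes.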

Additional observations from a re-analysis of the deposited data

How the results depend on the processing

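No log2 fold change of Mt1, Mt2 or Mt3 between groups lost a call, since none passed by edgeR, and of 330 recomputed values over 18 results 303 kept their direction and side of the threshold, 22 turned in direction and 5 passed the threshold. The last were Mt3 in F0_Dep over F0_Ctl, at -0.51 by limma on log2(FPKM + 1) and -0.51 on log2(FPKM + 0.1) (adjusted p = 0.0399 and 0.0401), Mt1 in F1_Dep over F0_Dep, at 0.35 by voom with library weights and 0.30 with those 6 libraries alone, and Mt3 in F1_Dep over F1_Ctl without F1_Ctl 1. The test of Mt3 over 4 groups had an adjusted p = 0.0427 by DESeq2. Mt1 in F1_Dep over F0_Ctl turned to -0.059 on log2(FPKM + 1), with or without the filter on low FPKM, and to -0.0591 on log2(FPKM + 0.1).

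Without F0_Ctl 3, F1_Ctl 3 and F1_Dep 1 together, values that turned were Mt1 in F1_Dep over F1_Ctl (0.19), Mt1 and Mt2 in F1_Ctl over F0_Ctl (-0.14 and -0.23), the difference of both changes for Mt2 and Mt3 (0.39 and 0.12), Slc30a1 (-0.0606) and Hmox1 (0.18) in F1_Dep over F1_Ctl. There the exact permutation test gave adjusted p of 0.0373 for the ratio of Mt1 to Mt3 and 0.00476 for that of Mt2 to Mt3. By voom Hmox1 in F0_Dep over F0_Ctl was 0.0427 and Slc30a1 in F1_Dep over F1_Ctl -0.0932. In FPKM, over 9 libraries without F1_Ctl, the ratio of Mt1 to Mt2 had an adjusted p = 0.0857 (exact permutation test) and the correlation of Mt1 with Mt2 was 0.82. That coefficient is below the 0.91 in counts over 12 libraries, but the unit and the set of libraries both differ. In counts it was 0.81 without F1_Ctl 3 alone. The cause was not tested.

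With 1 library left out at a time, log2 fold changes in F1_Dep over F1_Ctl ran from -0.41 to 0.14 for Mt1 and from -0.72 to -0.24 for Mt3. In F1_Dep over F0_Ctl they ran from -0.10 to 0.27 for Mt1 and from -0.30 to 0.0298 for Mt3, in F1_Dep over F0_Dep from -0.0686 to 0.17 for Mt2, and in F1_Ctl over F0_Ctl from -0.0886 to 0.46 for Mt1 and from -0.16 to 0.41 for Mt2. The difference of both changes ran from -0.16 to 0.39 for Mt1, from -0.37 to 0.20 for Mt2 and from -0.34 to 0.12 for Mt3. The adjusted p of Mt3 over 4 groups ran from 0.0232 to 0.348 by edgeR. In F0_Dep over F0_Ctl Slc30a1 ran from -0.00615 to 0.11, Hmox1 from -0.22 to 0.21 and Slc30a3 from -0.33 to 0.0677. In F1_Dep over F1_Ctl Slc30a1 ran from -0.0394 to 0.16, Hmox1 from -0.59 to 0.029, Slc39a14 from -0.01 to 0.24 and Fkbp5 from -0.0443 to 0.15. For the ratios the adjusted p of the exact permutation test ran from 0.0224 to 0.231 (Mt1 to Mt3), 0.0220 to 0.0538 (Mt1 to Mt2) and 0.0497 to 0.319 (Mt2 to Mt3), and correlations ran from 0.80 to 0.92 (Mt1 with Mt3), 0.81 to 0.95 (Mt1 with Mt2) and 0.78 to 0.91 (Mt2 with Mt3).

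The labels do not say that replicate numbers pair the mice, and the main fit did not pair them. Deviations of same-numbered libraries correlated at -0.18 to 0.50, highest for F1_Ctl 3 with F0_Ctl 3, and not every library correlated best with its own number. Such correlations cannot decide whether mice were paired. With the replicate number as a block the values of Mt1, Mt2 and Mt3 were -0.28, -0.33 and -0.37 in F0_Dep over F0_Ctl and -0.17, -0.44 and -0.49 in F1_Dep over F1_Ctl, and no call of theirs changed. That block moved the count of all genes called to 12 in F0_Dep over F0_Ctl (80 without it), 0 in F1_Dep over F1_Ctl (27 without it) and 176 in F1_Dep over F0_Dep (464 without it), and among named genes Cdkn1a in both stress comparisons, Plin4 and Per1 in F1_Dep over F1_Ctl and Tsc22d3 in F1_Dep over F0_Dep were no longer called. DESeq2 called 1078, 543 and 1503 genes in these comparisons. Over all settings the counts ran from 5 to 2930, 0 to 1517 and 8 to 4822. No scaling moved the median of all genes by over 0.1 on the log2 scale.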
